A study of Mus musculus with 45 samples.

Results

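Gpc6, Vcan, Pbx3, Gas1, Cpe, Adgra2, Tenm3, Cdk14 and Man1a are 9 of the 18193 genes measured in a series that followed mouse embryonic stem cells (ESCs) into embryoid bodies (EBs), the hanging-drop aggregates in which such cells differentiate. The study compared 3 lines of male cells of strain 129: wild type (WT), a scrambled control (SCR) and a line labelled as silenced for Strip2 (KD-labelled). Each line was profiled undifferentiated and as EBs of 4, 8, 12 and 16 days, with 3 Affymetrix expression arrays at each of the 5 stages, 45 arrays in all. The labels name neither the construct sequence nor how many clones the SCR and KD-labelled lines represent, and they do not say whether the 3 arrays of a group are 3 cultures. The p-values therefore rest on a spread between arrays that may be technical.

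The 9 genes were chosen on their own values. At all 5 stages each was called lower in the KD-labelled line than in both controls (limma, Benjamini-Hochberg adjusted p under 0.05), with every KD-labelled array below all 6 control arrays. Of all genes, 333 (1.83%) met this and 341 met the reverse. Ranked by the mean of KD-labelled minus SCR over the 5 stages, the 9 are the first 11 of the 333 without Ndn and a gene known only by a locus number. That mean was -4.07 for Gpc6 at the top and -2.99 for Man1a, the last inside, against -2.90 for Nexn and Parva, just outside. The contrasts of the KD-labelled line with its controls are therefore given for these genes as a description, without p-values. The ranking also favours genes that are high in SCR bodies, so counts of the genes that rise along a line's course describe them and show nothing particular to them. The 333 also hold the Y-linked genes Uty and Eif2s3y. Their means were -2.20 and -1.41 from SCR and -1.87 and -1.28 from WT. Whether the KD-labelled line differs from its controls in chromosome content was not tested.

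The proteins act at the cell surface, around the cell, in the secretory pathway and in the nucleus. Glypican-6 (Gpc6) is a heparan sulfate proteoglycan held on the membrane by a lipid anchor, and such proteoglycans bind growth factors and Hedgehog ligands. Versican (Vcan) is a chondroitin sulfate proteoglycan that binds hyaluronan in the matrix of developing heart and mesenchyme. Gas1 is a lipid-anchored Hedgehog co-receptor, Adgra2 (also Gpr124) an adhesion G-protein-coupled receptor that works with Reck in Wnt7 signalling, and Tenm3 a teneurin, a transmembrane adhesion protein that binds latrophilins. Pbx3 is a homeodomain transcription factor of the TALE class that binds DNA with Hox and Meis proteins. Cpe trims basic residues from prohormones, Man1a trims mannose from N-glycans in the Golgi, and Cdk14 is a cyclin Y-dependent kinase of the Wnt co-receptor Lrp6.

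In RefSeq's annotation of GRCm38.p6 the genes lie on 7 chromosomes, with Cpe at chr8:64592542-64693109, Adgra2 at chr8:27085520-27123436 and Tenm3 at chr8:48225665-49522824 sharing chromosome 8, and Vcan at chr13:89655309-89743027 and Gas1 at chr13:60174405-60177535 sharing chromosome 13. Gpc6 spans chr14:116924920-117979529, Pbx3 chr2:34171457-34372045, Cdk14 chr5:4803384-5380251 and Man1a chr10:53904785-54076616. Promoter windows of 300 bases, 250 before and 50 after the annotated start, were held in the RefSeq table for 5 of the 9: Vcan, Gas1, Tenm3, Cdk14 and Man1a. The other 4 are Gpc6, Pbx3, Cpe and Adgra2. Windows of 3 genes that share matches to CCAAT and to GGGCGG are printed to show where those letters lie, 5′ to 3′ on the gene's strand, with matches to any of the 10 motifs searched in capitals.
Vcan (chr13:89742463-89742762, minus strand): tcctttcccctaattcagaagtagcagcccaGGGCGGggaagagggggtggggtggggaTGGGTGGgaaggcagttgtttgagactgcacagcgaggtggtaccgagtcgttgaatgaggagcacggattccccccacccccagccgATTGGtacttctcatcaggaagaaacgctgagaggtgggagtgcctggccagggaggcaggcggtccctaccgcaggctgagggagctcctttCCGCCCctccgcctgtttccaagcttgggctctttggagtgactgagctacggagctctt
Gas1 (chr13:60177486-60177785, minus strand): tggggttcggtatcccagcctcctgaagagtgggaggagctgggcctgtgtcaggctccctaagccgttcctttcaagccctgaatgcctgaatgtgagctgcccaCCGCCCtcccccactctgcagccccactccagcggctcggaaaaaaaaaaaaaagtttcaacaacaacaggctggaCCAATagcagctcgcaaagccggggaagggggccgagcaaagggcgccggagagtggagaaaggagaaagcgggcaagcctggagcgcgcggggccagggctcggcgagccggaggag
Man1a (chr10:54075688-54075987, minus strand): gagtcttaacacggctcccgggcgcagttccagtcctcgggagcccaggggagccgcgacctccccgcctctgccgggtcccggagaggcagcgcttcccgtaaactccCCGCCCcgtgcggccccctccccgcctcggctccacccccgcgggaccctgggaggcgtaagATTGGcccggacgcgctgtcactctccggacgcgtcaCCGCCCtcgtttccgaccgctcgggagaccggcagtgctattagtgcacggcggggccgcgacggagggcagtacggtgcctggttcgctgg

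CCAAT, or its reverse complement, lies 103 bases before the start in Vcan, 68 in Gas1 and 79 in Man1a, and 37.4% of the 32851 promoters of the table hold it. GGGCGG was found in the windows of Vcan, Gas1, Cdk14 and Man1a, and in 35.7% of all promoters. CACCTG (20.2% of all) and GGAATG (14.7%) each matched in Tenm3, and TGGGTGG (9.3%) matched in Vcan. The Tenm3 window (chr8:48674641-48674940) lies far inside the span of the gene. Those of Vcan and Man1a also lie within the spans given above, but close to an end. TATAAA (13.6% of all), TGACTCA (5.20%), ATTTGCA (4.02%), TTTGAT (11.9%) and TGATTNA (10.3%) matched in none of the 5 windows, on either strand; the last 2 can overlap each other by TGAT. A match is a run of letters and not a bound site. The windows differ in base composition: Cdk14 holds 53 CpG dinucleotides and 81.3% G and C, with as many CpG in 0.451% of all promoters, and Man1a holds 38. Gas1 holds 17, Vcan 12 and Tenm3 10, against a median of 7 over all promoters.

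The median log2 signal of an array was 5.02 to 5.18, and arrays of a group had correlations of 0.9888 to 0.9961 over probe sets. Strip2, the gene named in the label, had a dim probe set: group means were 2.70 to 3.12 in WT, 2.57 to 4.85 in SCR and 2.72 to 3.75 in the KD-labelled line, whose mean was above that of WT at every stage and below that of SCR in ESCs and on days 12 and 16. The arrays thus give no check that the line was silenced, and it is called KD-labelled throughout. Marker genes were called by limma at adjusted p under 0.05 against both controls. On days 4, 8, 12 and 16, 16.8%, 21.0%, 19.8% and 23.1% of all genes were lower than both. The shares that were higher were 17.6%, 23.1%, 24.1% and 31.8%. Of 20 pluripotency markers, 17, 20, 18 and 19 were higher in KD-labelled bodies than in both controls on days 4, 8, 12 and 16. Of 20 fibroblast and mesenchyme markers, 9, 17, 19 and 19 were lower than in both on those days. On day 16 the smooth muscle list had 5 of 8 genes lower than in both and 1 higher, the cardiac list 6 of 10 and 0, the endothelial list 7 of 10 and 1, and the neural list 7 of 11 and 2. The endoderm list then had 5 of 12 lower and 6 higher, and the trophoblast list 2 of 8 and 2. Those trophoblast counts lay near the shares over all genes. The blood list had 6 of 7 lower on day 8, 5 on day 12 and 1 on day 16, when 2 were higher. In whole bodies, fewer cells of a type and less RNA per cell cannot be told apart.

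Across the 9 genes, the median difference from SCR was -1.99 in ESCs, -3.02 on day 4, -4.36 on day 8, -3.66 on day 12 and -3.82 on day 16, in log2 units. From WT it was -1.33, -2.88, -4.37, -3.26 and -3.44, while the medians over all genes tested lay between -0.01 and 0.17. The distance between the highest KD-labelled array and the lowest control array ran from 0.20 (Adgra2) to 1.58 (Pbx3) in ESCs and from 2.53 (Cpe) to 4.44 (Vcan) on day 8. The groups thus lay closest together before differentiation and farthest apart on day 8 by both measures. By the rule all 45 pairs of a gene and a stage were called lower against each control, where 21.5% of such pairs over all genes were against SCR (26.7% higher) and 20.7% against WT (23.1% higher). The comparisons with SCR and with WT share the KD-labelled arrays. The table holds no detection calls, and KD-labelled signals of Gpc6 in ESCs and on day 4, of Adgra2 in ESCs and on days 4 and 8 and of Cdk14 in ESCs lay below every array's median, in the range of the dim Strip2 signals. Folds against them are those of the deposited signals and may be lower bounds. In ESCs some control signals were dim too. Adgra2 read 4.25 to 4.9 in WT and 4.4 to 5.07 in SCR, and Gpc6 read 4.17 to 5.19 in WT. Where both sides are dim, the size of a difference is uncertain.

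**Figure D1:**
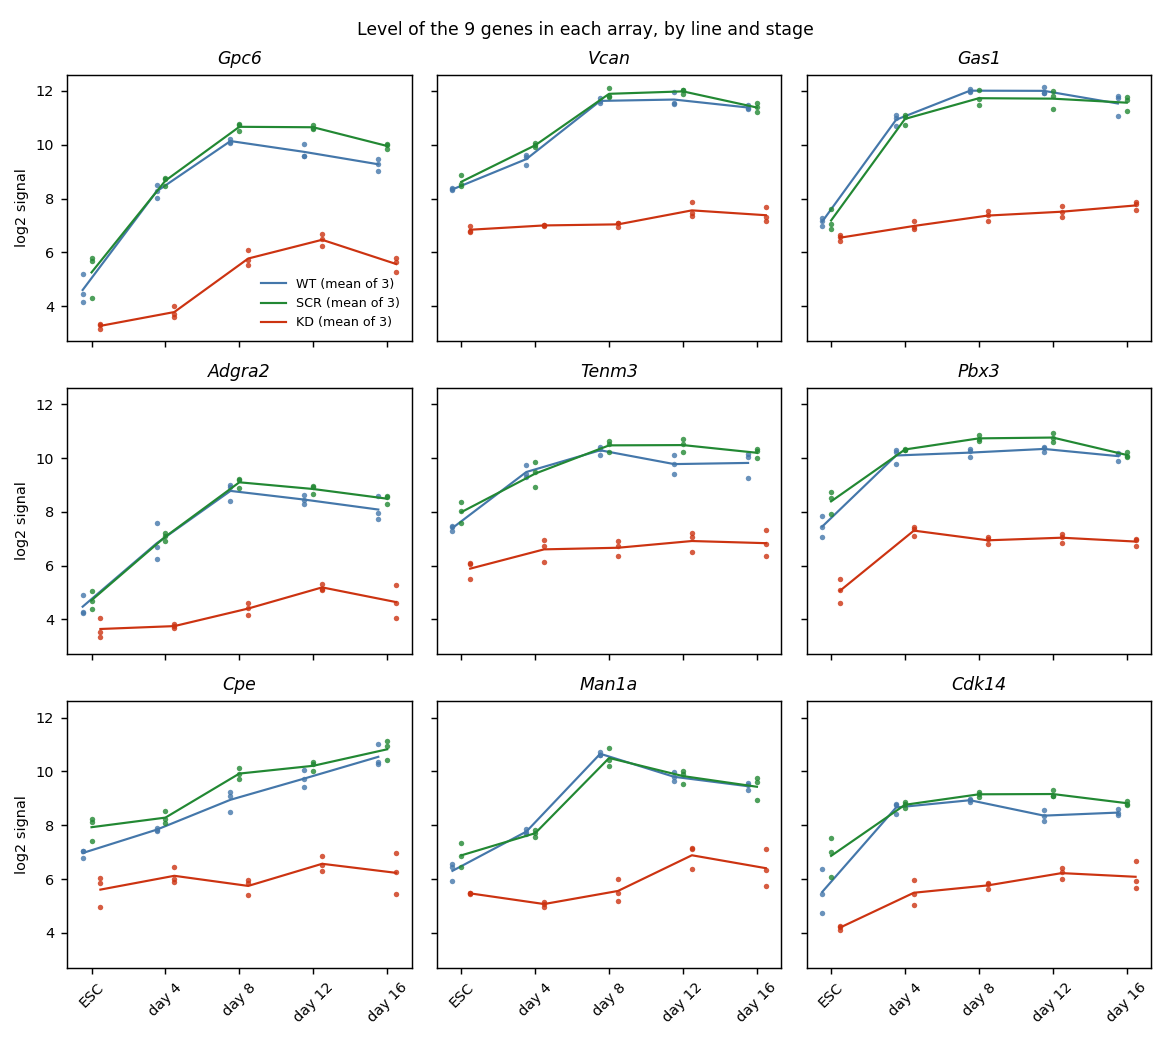
Log2 signal (vertical axis) of each of the 9 genes in every array (points) and the mean of 3 arrays (lines), by stage (horizontal axis), for WT (blue), SCR (green) and the KD-labelled line (red). The red points lie below all blue and green points at every stage, from 0.20 below in ESCs for Adgra2 to 4.44 below on day 8 for Vcan.

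Gpc6, the glypican, showed the largest mean difference. Its WT signals were 5.19, 4.44 and 4.17 in ESCs, 8.03, 8.49 and 8.27 on day 4, 10.1, 10.23 and 10.08 on day 8, 9.58, 10.04 and 9.58 on day 12, and 9.48, 9.3 and 9.04 on day 16. SCR arrays gave 5.66, 4.31 and 5.79 in ESCs, 8.74, 8.48 and 8.78 on day 4, 10.76, 10.74 and 10.5 on day 8, 10.58, 10.73 and 10.64 on day 12, and 9.98, 10.02 and 9.86 on day 16. The KD-labelled arrays read 3.34, 3.16 and 3.3 in ESCs, 4.01, 3.61 and 3.72 on day 4, 5.7, 5.52 and 6.09 on day 8, 6.49, 6.24 and 6.67 on day 12, and 5.64, 5.26 and 5.8 on day 16. Controls rose to day 4 and again to day 8, with no later step that passed, whereas the KD-labelled signal rose between days 4 and 8. The KD-labelled mean was 3.96-fold below SCR in ESCs, 29.6-fold on day 4 and 29.8-fold on day 8, and 22.4-fold below WT on day 4, the ESC and day 4 folds against dim signals. Within the KD-labelled line the change from ESCs was 0.51 ± 0.24 (SE; adjusted p = 0.12) by day 4 and 2.50 ± 0.24 (SE; adjusted p = 2.2e-10) by day 8, by limma. In WT the day 4 rise was 3.66 ± 0.24 (SE; adjusted p = 2.1e-15) by the same test. KD-labelled bodies never reached the lowest control mean of any EB day, 8.26.

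Vcan, the hyaluronan-binding proteoglycan, changed least along the KD-labelled course. In WT it read 8.34, 8.3 and 8.38 in ESCs, 9.61, 9.54 and 9.25 on day 4, 11.62, 11.73 and 11.54 on day 8, 11.55, 11.97 and 11.52 on day 12, and 11.46, 11.37 and 11.32 on day 16. In SCR it read 8.86, 8.55 and 8.46 in ESCs, 10.06, 9.9 and 9.98 on day 4, 12.1, 11.77 and 11.81 on day 8, 11.87, 12.05 and 12.03 on day 12, and 11.4, 11.2 and 11.55 on day 16. The KD-labelled arrays gave 6.75, 6.8 and 6.97 in ESCs, 7, 6.97 and 7.03 on day 4, 6.93, 7.09 and 7.1 on day 8, 7.46, 7.35 and 7.87 on day 12, and 7.16, 7.3 and 7.68 on day 16. All 15 KD-labelled arrays, bodies included, lay below the lowest control ESC array of 8.3. The day 8 mean was 28.9-fold below SCR and 24.1-fold below WT, with 7.04 ± 0.0954 (SD, n = 3) against 11.89 ± 0.18 and 11.63 ± 0.0954. From ESCs to day 8 the signal rose by 3.29 ± 0.13 (SE; adjusted p = 1.8e-21) in WT and by 3.27 ± 0.13 (SE; adjusted p = 2.6e-21) in SCR. In the KD-labelled line that change was 0.20 ± 0.13 (SE; adjusted p = 0.26), and the range of its 5 stage means was 0.72, the narrowest of the 9 genes.

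Gas1, the Hedgehog co-receptor, had the smallest difference of means in ESCs and the second largest from SCR on day 4. ESC signals were 7.29, 7.15 and 6.99 in WT, 7.62, 6.88 and 7.05 in SCR and 6.65, 6.41 and 6.57 in the KD-labelled line, a difference of 1.56-fold from SCR with a gap of 0.23 between the nearest arrays. On day 4 they were 10.68, 11.01 and 11.1 in WT, 11.1, 10.75 and 11.03 in SCR and 7.15, 6.93 and 6.86 in the KD-labelled line. The day 4 mean was thus 15.8-fold below SCR, and on day 8 it was 25.0-fold below WT. Control arrays of days 8 to 16 ran from 11.05 to 12.16. KD-labelled arrays were 7.53, 7.18 and 7.39 on day 8, 7.3, 7.5 and 7.73 on day 12 and 7.56, 7.8 and 7.87 on day 16. Gas1 was the only member whose KD-labelled mean was highest on day 16, 1.2 above ESCs (SE 0.19, adjusted p = 2.6e-06).

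Adgra2, the Reck partner, gave KD-labelled signals in ESCs and on day 4 of 3.36 to 4.05 and 3.67 to 3.84, while the WT and SCR means on day 4 were 6.83 and 7.08. Later KD-labelled arrays gave 4.41, 4.18 and 4.63 on day 8, 5.33, 5.15 and 5.1 on day 12 and 4.05, 4.61 and 5.28 on day 16. WT arrays ran from 4.25 to 4.9 in ESCs, from 6.24 to 7.57 on day 4, from 8.39 to 9.01 on day 8 and from 7.74 to 8.58 on day 16. The lowest WT ESC array, 4.25, stood 0.20 above the highest KD-labelled one, while on day 8 the gap was 3.76. The mean was 2.1-fold below SCR in ESCs and 25.9-fold below it on day 8, when the SCR arrays read 8.88, 9.19 and 9.23, both against dim KD-labelled signals.

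Tenm3, the teneurin, was already set apart in ESCs, with 6.05, 5.51 and 6.11 in the KD-labelled line against 7.44, 7.46 and 7.3 in WT and 8.35, 7.58 and 8.04 in SCR. By day 8 it read 6.73, 6.37 and 6.9 against 10.13, 10.32 and 10.42 in WT and 10.65, 10.23 and 10.54 in SCR. KD-labelled arrays of day 12 gave 7.2, 6.49 and 7.06 and those of day 16 6.81, 6.36 and 7.34. The fold below SCR was 4.29 in ESCs and 14 on day 8. The KD-labelled means of all EB days lay below the WT ESC mean of 7.40, the highest being 6.92 on day 12.

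Pbx3, the transcription factor, was set apart before differentiation. WT signals were 7.84, 7.45 and 7.07 in ESCs, 9.77, 10.29 and 10.23 on day 4, 10.32, 10.04 and 10.25 on day 8, 10.43, 10.38 and 10.21 on day 12, and 10.14, 10.18 and 9.9 on day 16. SCR signals were 8.73, 7.93 and 8.51 in ESCs, 10.35, 10.31 and 10.3 on day 4, 10.64, 10.71 and 10.85 on day 8, 10.93, 10.75 and 10.61 on day 12, and 10.24, 10.07 and 10.04 on day 16. KD-labelled signals were 5.11, 4.6 and 5.49 in ESCs, 7.44, 7.09 and 7.38 on day 4, 7.06, 6.79 and 6.98 on day 8, 6.85, 7.08 and 7.19 on day 12, and 6.75, 6.99 and 6.95 on day 16. All 3 lines rose to day 4, and the highest KD-labelled array of any stage, 7.44 on day 4, did not reach the WT ESC mean of 7.45. From ESCs to day 4 the rise was 2.64 ± 0.18 (SE; adjusted p = 8.3e-15) in WT, 1.93 ± 0.18 (SE; adjusted p = 3.3e-11) in SCR and 2.24 ± 0.18 (SE; adjusted p = 1.1e-11) in the KD-labelled line, by limma. The fold below SCR was 10 in ESCs, 8.09 on day 4, 13.8 on day 8, 13.2 on day 12 and 9.32 on day 16. Pbx3 had the widest gap of the 9 genes in ESCs, 1.58.

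Cpe, the prohormone-trimming carboxypeptidase, was the only member with its highest mean on day 16 in both control lines. WT arrays gave 7.05, 6.79 and 7.06 in ESCs, 7.84, 7.78 and 7.88 on day 4, 9.08, 8.51 and 9.25 on day 8, 9.71, 10.07 and 9.43 on day 12, and 10.26, 11.01 and 10.36 on day 16. SCR arrays gave 8.25, 7.41 and 8.12 in ESCs, 8.08, 8.25 and 8.52 on day 4, 9.72, 9.9 and 10.14 on day 8, 10.34, 10.03 and 10.26 on day 12, and 10.41, 11.13 and 10.93 on day 16. In the KD-labelled line they were 5.84, 6.02 and 4.96 in ESCs, 6.45, 5.9 and 6.01 on day 4, 5.98, 5.85 and 5.4 on day 8, 6.54, 6.31 and 6.85 on day 12, and 6.27, 5.46 and 6.96 on day 16. The control means climbed from each stage to the next, and the KD-labelled line stayed between 4.96 and 6.96 throughout. On day 16 it was 24.1-fold below SCR and 19.9-fold below WT, against 4.48-fold and 3.28-fold on day 4. From ESCs to day 16 the change was 3.58 ± 0.28 (SE; adjusted p = 1.5e-13) in WT and 0.62 ± 0.28 (SE; adjusted p = 0.081) in the KD-labelled line. Without KD-labelled day 16 replicate 2, the low one at 5.46, that last change was 1.01 with adjusted p = 0.0051, and without KD-labelled ESC replicate 2 it was 0.83 with adjusted p = 0.036.

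Man1a, the Golgi mannosidase, had its highest control means on day 8. WT signals were 6.55, 6.45 and 5.91 in ESCs, 7.87, 7.66 and 7.76 on day 4, 10.74, 10.61 and 10.62 on day 8, 9.98, 9.63 and 9.79 on day 12, and 9.56, 9.48 and 9.31 on day 16. SCR signals were 7.34, 6.45 and 6.85 in ESCs, 7.71, 7.58 and 7.82 on day 4, 10.86, 10.22 and 10.42 on day 8, 10.03, 9.9 and 9.55 on day 12, and 9.61, 8.94 and 9.74 on day 16. The KD-labelled line gave 5.47, 5.47 and 5.46 in ESCs, 5.08, 4.97 and 5.16 on day 4, 5.49, 5.17 and 6.01 on day 8, 7.17, 6.37 and 7.11 on day 12, and 6.33, 5.75 and 7.13 on day 16. It was the only member whose KD-labelled mean was lower on day 4 than in ESCs, by an amount that did not pass the test (-0.40 ± 0.25 SE, adjusted p = 0.29). On day 8 the KD-labelled mean was 30.8-fold below SCR and 34.3-fold below WT, and on day 12 7.69-fold and 7.55-fold. Between those days WT fell, as 6.03% of genes did (-0.86 ± 0.25 SE, adjusted p = 0.018) while the KD-labelled line rose (1.33 ± 0.25 SE, adjusted p = 0.003). The WT call was lost without WT day 8 replicate 1 (adjusted p = 0.062), WT day 12 replicate 2 (0.08) or replicate 3 (0.051), and the KD-labelled call without its day 8 replicate 2 (0.054) or day 12 replicate 1 (0.052).

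Cdk14, the cyclin Y-dependent kinase, had the largest SD of the 9 genes in WT ESCs, with signals of 6.38, 5.46 and 4.72 there, 7.52, 6.06 and 7 in SCR and 4.22, 4.09 and 4.27 in the KD-labelled line. Bodies of the KD-labelled line gave 5.05, 5.46 and 5.96 on day 4, 5.62, 5.81 and 5.86 on day 8, 5.99, 6.25 and 6.42 on day 12 and 5.93, 5.66 and 6.66 on day 16. Control bodies ran from 8.17 to 9.32 over all days. The KD-labelled mean was 6.35-fold below SCR in ESCs but 2.51-fold below WT, and on day 8 10.5-fold and 8.98-fold. With Pbx3 and Tenm3 it was called higher than in ESCs by day 4 in the KD-labelled line, by 1.30 ± 0.27 (SE; adjusted p = 0.00046).

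**Figure D2:**
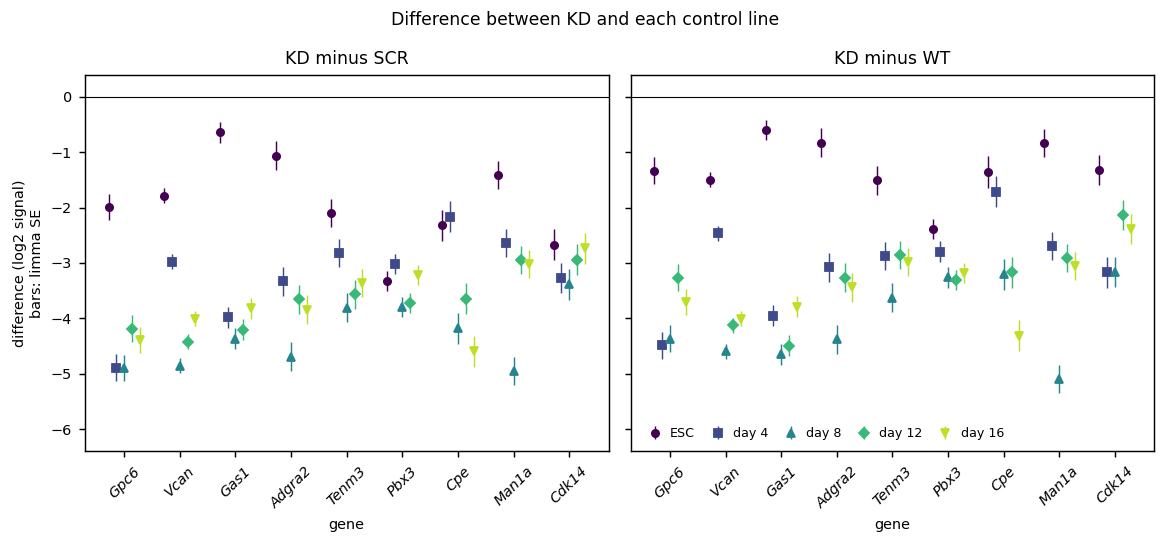
Difference between the KD-labelled line and SCR (left) or WT (right), in log2 signal on the vertical axis, for each of the 9 genes on the horizontal axis; markers give the stage, points are differences of means of 3 arrays and bars are limma's SE. Every point lies below 0, from -0.60 for Gas1 in ESCs against WT to -5.10 for Man1a on day 8 against WT; the genes were chosen on these contrasts.

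Within lines, the courses were tested against ESCs by limma. In WT all 36 pairs of a gene and an EB day were called higher, where 25.5% of such pairs over all genes were (30.6% lower), with a median difference of 2.35 on day 4, 3.41 on day 8, 3.34 on day 12 and 3.15 on day 16. In SCR 35 of 36 were called higher (25.8% over all genes, 34.0% lower), with medians of 1.90, 3.27, 2.95 and 2.76. The exception was Cpe on day 4 (0.36 ± 0.28 SE, adjusted p = 0.34). In the KD-labelled line 26 of 36 were called higher (17.4% over all genes, 18.2% lower), with medians of 0.51, 0.78, 1.42 and 1.0. None was called lower in any line, nor was any at an unadjusted p under 0.05. All days of a line share its ESC arrays. Over all genes the median change ran from 0.003 to -0.19 in these comparisons, and to -0.30 with arrays centred on their medians. The difference between the KD-labelled course and the control courses was not tested, since it is made of the contrasts on which the genes were chosen.

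In the KD-labelled bodies most calls came after day 4. On day 4, 3 members were called higher than in ESCs (Pbx3, Tenm3 and Cdk14; 12.4% over all genes), on day 8, 6 with Gpc6, Gas1 and Adgra2 added (17.8%), on day 12 all 9 (20.2%) and on day 16 all but Cpe (19.1%). The range of stage means had a median of 1.55 over the 9 genes in the KD-labelled line, against 3.58 in WT and 3.36 in SCR. The KD-labelled mean was highest on day 12 for 7 members, on day 4 for Pbx3 and on day 16 for Gas1. For Vcan, Pbx3, Cpe and Tenm3 no KD-labelled EB mean reached the mean of WT ESCs, and for these 4 and Cdk14 none reached that of SCR ESCs. KD-labelled day 16 replicate 3 was the highest of its group in 8 of 9 members. Without it the day 16 calls of Adgra2 (adjusted p = 0.05), Tenm3 (0.05) and Man1a (0.079) were lost. Single arrays also decided the calls of Tenm3 on day 4 (adjusted p = 0.13 to 0.21 without any of 3), Tenm3 and Adgra2 on day 8 (0.067 to 0.11) and Cpe on day 12 (0.089 without KD-labelled ESC replicate 3). The choice of probe set mattered as well. With the probe set of largest spread the Vcan calls on days 12 and 16 were lost (adjusted p = 0.11 and 0.35), leaving 24 of 36. With the mean of all probe sets 21 were left: Vcan on days 12 and 16 (0.54 and 0.58), Gas1 on days 8 and 12 (0.28 and 0.082) and Cpe on day 12 (0.19) were lost.

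Step by step, the calls of rising signal in the control lines all fell at or before day 8. From ESCs to day 4, 9 members rose in WT (21.4% over all genes) and 8 in SCR (20.6%), and from day 4 to day 8, 7 rose in each (19.9% and 20.1%). Pbx3 and Cdk14 did not pass the test in the second step in either line. Pbx3 in SCR passed with cyclic loess between arrays (adjusted p = 0.016), among genes above the median level (0.049), with the mean of probe sets (0.035) and with only the groups compared (0.016), and Cdk14 in SCR with only the groups compared (0.025). In the fit of all groups Cdk14 changed by 0.27 ± 0.27 (SE; adjusted p = 0.45) in WT and by 0.39 ± 0.27 (SE; adjusted p = 0.27) in SCR. In WT Vcan rose by 1.13 and then by 2.16, and Man1a by 1.46 and then by 2.89; the difference of the steps was not tested. After day 8, 0 members rose in WT or SCR by limma, where 6.24% to 6.92% of genes did, and later Cpe steps of up to 0.81 did not pass (adjusted p = 0.067). At an unadjusted p under 0.05, 3 later steps were higher, all of Cpe. From day 12 to day 16, Vcan (-0.60 ± 0.13 SE, adjusted p = 0.0017) and Pbx3 (-0.65 ± 0.18 SE, adjusted p = 0.014) fell in SCR, where 4.48% of genes did. The Vcan call was lost with the probe set of largest spread (adjusted p = 0.17). The Pbx3 call was lost without SCR day 12 replicate 1 (adjusted p = 0.086) or SCR day 16 replicates 2 (0.051) or 3 (0.066). In WT, 16 of 36 steps were called higher and 1 lower (13.5% and 13.4% over all genes), and in SCR 15 and 2 (13.5% and 13.0%). In the KD-labelled line 6 of 36 were called higher (5.17% over all genes) and 0 lower (4.40%), with 13 and 2 at an unadjusted p under 0.05: Pbx3, Tenm3 and Cdk14 to day 4 (12.4% of genes), Gpc6 from day 4 to day 8 (7.18% of genes; 1.99 ± 0.24 SE, adjusted p = 1.7e-07), and Vcan and Man1a from day 8 to day 12, where only 0.967% of genes rose. The Vcan step (0.52 ± 0.13 SE, adjusted p = 0.047) was lost without any of 5 arrays (adjusted p = 0.075 to 0.50). It was also lost with the probe set of largest spread (adjusted p = 0.70) and with the mean of all probe sets (0.84). Cyclic loess (0.051), only the groups compared (0.14) and the replicate number as a block (0.053) ended it too.

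The control lines differed from each other for some members. Of 45 pairs of a gene and a stage, 7 were called higher in SCR, 15.6% against 3.76% of all such pairs, and 0 lower (4.62% of all pairs); at an unadjusted p under 0.05, 17 were higher and 0 lower. In ESCs all 9 differences were positive, from 0.04 (Gas1) to 1.34 (Cdk14), and Cdk14 (1.34 ± 0.27 SE, adjusted p = 0.0011), Pbx3 (0.94 ± 0.18 SE, adjusted p = 0.00058) and Cpe (0.96 ± 0.28 SE, adjusted p = 0.023) passed, where 4.43% of genes were higher. On day 12 Gpc6 was 0.92 ± 0.24 (SE; adjusted p = 0.007) above WT and Cdk14 0.80 ± 0.27 (SE; adjusted p = 0.043) (7.05% of genes). Vcan on day 4 (0.51 ± 0.13 SE, adjusted p = 0.034; 0.610% of genes) and Cpe on day 8 (0.97 ± 0.28 SE, adjusted p = 0.028; 2.83%) were the others. Fitted on the 6 ESC arrays of SCR and WT alone, the ESC calls were lost, with adjusted p = 0.24 for Cdk14, 0.16 for Pbx3 and 0.12 for Cpe. Leaving out single arrays ended the calls of Cpe in ESCs (adjusted p up to 0.18), Cpe on day 8 (up to 0.19), Vcan on day 4 (up to 0.21) and Cdk14 on day 12 (up to 0.18). The Vcan call was also lost with the probe set of largest spread (0.39), the mean of all probe sets (0.53) and only the groups compared (0.12). That of Cdk14 on day 12 was lost with arrays centred on their medians (0.052) and with cyclic loess (0.055). Of the 36 differences between the SCR and WT courses, 1 was called lower (3.90% over all genes) and 0 higher (3.74%): Pbx3 on day 16, by -0.89 ± 0.26 (SE; adjusted p = 0.024). At an unadjusted p under 0.05, 6 were lower and 0 higher. That call was lost without any of 5 arrays (adjusted p = 0.052 to 0.12). Ranking by KD-labelled minus SCR favours genes high in SCR, so these counts are not independent of the choice of genes.

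Single ESC arrays stood apart. SCR ESC replicate 2 was the lowest of its 3 arrays in 8 of 9 members and WT ESC replicate 3 in 7. The mean of 8 primed epiblast markers also varied, with 7.79, 8.55 and 7.11 in WT ESC arrays. It was 9.52, 9.25 and 8.70 in SCR and 7.08, 6.92 and 7.20 in the KD-labelled line. There 3 of the 8 were called lower than in both controls by limma (6.28% over all genes). That list's part in the ESC differences was not tested. In ESCs 0 of the 20 fibroblast and mesenchyme markers were lower than in both controls by limma, also at an unadjusted p under 0.05. After adjustment 2 were higher (5.84% over all genes). Their mean level was 4.56 to 4.61 in KD-labelled arrays against 4.18 to 4.49 in WT and 4.37 to 4.63 in SCR. In bodies that mean was lower in the KD-labelled line: on day 16 it was 4.96 to 5.49, against 9.85 to 10.13 in WT and 9.89 to 9.94 in SCR. From day 8 to day 16 it rose from 9.44 to 9.98 in WT and from 9.26 to 9.92 in SCR. The mean of the 9 genes meanwhile fell from 10.18 to 9.85 in WT and from 10.46 to 10.09 in SCR. Cpe alone of the 9 rose, from 8.95 to 10.54 in WT and from 9.92 to 10.82 in SCR. These changes from day 8 to day 16 were not tested. The part of the fibroblast and mesenchyme markers in the EB differences was not tested either. KD-labelled day 16 replicate 3, high in 8 of 9 members, had the highest mean of these markers, 5.49.

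**Figure D3:**
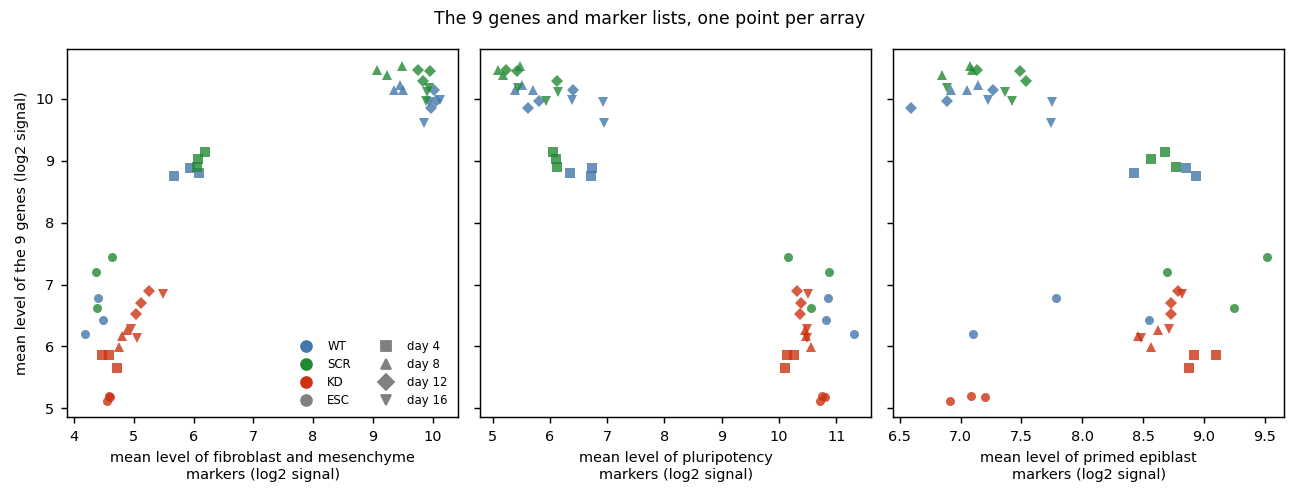
Mean log2 signal of the 9 genes (vertical axis) against the mean log2 signal of 20 fibroblast and mesenchyme, 20 pluripotency and 8 primed epiblast markers (horizontal axes), with 1 point for each of 45 arrays, coloured by line and shaped by stage. Control bodies from day 8 on sit between 9.07 and 10.13 on the fibroblast axis, KD-labelled bodies between 4.47 and 5.49, and the ESC arrays of all lines between 4.18 and 4.63.

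The members have 28 probe sets, of which 9 were used. Of the other 19, 12 had a signal above 6 on some array. By sign alone, without a test, 9 of these 12 were lower in all 10 comparisons of the KD-labelled line with a control. The exceptions were 1 probe set each of Gpc6, Vcan and Gas1, lower in 9, 8 and 7 of the 10. That of Gas1 correlated at 0.072 with the one used, and on day 16 it was 0.25 above SCR and 0.32 above WT. A second Vcan probe set differed from SCR by -5.06 on day 8 beside -4.85 for the one used, and further probe sets of Pbx3 and Tenm3 by -3.53 and -4.53 beside -3.79 and -3.81. The ESC differences were less even. A second Gas1 probe set differed from SCR by -0.07 in ESCs beside -0.64, a Gpc6 one from WT by 0.003 beside -1.33, and the second Man1a one from WT by -0.06 beside -0.84. Adgra2 has a single probe set. The other Cpe probe set was dim, at most 4.92, and correlated at -0.151 with the one used. It was lower in 6 of the 10 comparisons. The other Cdk14 probe sets were at most 4.44 and 4.53, and lower in 10 and 9 of the 10. The Cpe and Cdk14 differences thus also rest on 1 bright probe set each. With the mean of all probe sets of each gene, dim ones included, the median ESC difference was -0.997 from SCR and -0.48 from WT.

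Among themselves, the 9 genes correlated at 0.668 to 0.977 over the 30 WT and SCR arrays, with a median of 0.904 over 36 pairs, and at 0.182 to 0.867 with a median of 0.704 over the 15 KD-labelled arrays. Arrays of a stage share their day and line, so these values describe courses and carry no test. Over the control arrays the genes nearest to the mean of the 9 were Dyrk2 (r = 0.990), Antxr2 (0.989), Mfhas1 (0.989), Ywhab (0.987) and Crtc3 (0.987). Dyrk2 and Mfhas1 were among the 333 genes lower at every stage. Antxr2, which was not, differed from SCR by a mean of -3.56, beyond 7 of the 9. Single members were most like Smad3, Mfhas1 and Ywhab (Gpc6, 0.984 each), Meis1 and Rhobtb1 (Vcan, 0.987 each), Tmem119 (Gas1, 0.989), Meis2 and Gpc6 (Adgra2, 0.978 and 0.977), Mfhas1 (Tenm3, 0.974), Mpdz (Pbx3, 0.977), Mettl26 (Cpe, 0.969), Tshz1 (Man1a, 0.983) and Pbx3 (Cdk14, 0.968). All are Pearson correlations over 30 arrays.

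Relatives and partners of the 9 were listed by protein family, complex or pathway, with earlier results of these data known. They were tested against both controls by limma. Over all genes, 6.28%, 16.8%, 21.0%, 19.8% and 23.1% were lower than both in ESCs and on days 4, 8, 12 and 16, and 5.84%, 17.6%, 23.1%, 24.1% and 31.8% were higher. Each fold below is against SCR unless stated, and each relative called lower or higher passed against both controls. Of 119 entries in 9 lists, 267 pairs of a gene and a stage were called lower and 66 higher. Where a list below had 0 higher, at most 2 of its genes were higher than both at an unadjusted p under 0.05.

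Among 9 glypicans and syndecans, the heparan sulfate proteoglycans that include the relatives of Gpc6, 2 were lower in ESCs and 6 on each EB day. Gpc3 was lower at all 5 stages, 15.1-fold below SCR on day 4 (adjusted p = 1.5e-20) and 2.51-fold on day 16 (adjusted p = 1.2e-08). Gpc1 was also lower at all 5, 2.19-fold on day 8. Syndecan Sdc4 was higher at all 5, 10.4-fold above SCR on day 4 (adjusted p = 2e-19), and Sdc1 lower on all EB days, 6.53-fold on day 8. Both directions thus occurred within the family.

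Of 22 partners of versican and of the hyaluronan matrix, 1, 9, 11, 12 and 11 were lower from ESCs to day 16 and 2, 3, 4, 4 and 6 higher. Tenascin-C (Tnc), a matrix glycoprotein, was lower on all 4 EB days, with a mean difference from the controls of -3.41 over the 5 stages. Adamts1, a protease that cleaves versican, was 35.3-fold below SCR on day 8. The hyaluronan receptor Cd44 was 13.7-fold below SCR on day 4 (adjusted p = 1.6e-10). Has2, which makes hyaluronan, was 5.04-fold below SCR in ESCs and 12.5-fold on day 4, but by day 16 its difference of -0.39 from SCR did not pass (adjusted p = 0.076). The lectican Bcan was higher than both controls on all EB days, 1.97-fold above SCR on day 12.

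Of 15 Hedgehog pathway genes, the pathway of Gas1, 2 were lower in ESCs, 9 on day 4 and 11 on each later day, with 0, 1, 1, 1 and 2 higher. The list's median difference from SCR was -0.11, -0.54, -1.34, -1.77 and -1.09 over the stages. The signal transducer Smo was lower at all 5 stages, 2.72-fold below SCR in ESCs (adjusted p = 3.8e-09) and 6.8-fold on day 8, and so was the transcription factor Gli3, 7.13-fold on day 8. The ligand Shh and the co-receptors Cdon and Boc, which act beside Gas1, were lower on all 4 EB days: on day 12 Shh was 16.2-fold, Boc 4.71-fold and Cdon 3.08-fold below SCR. The target genes Gli1 and Ptch1 were not lower on day 4. Gli1 was 2.58-fold above WT then (adjusted p = 8.3e-07) and 2.34-fold below it on day 8 (adjusted p = 3.5e-06). Ptch1 was 2.04-fold above WT on day 4 but 0.36 from SCR (adjusted p = 0.15), and lower than both from day 8. Hhip, which binds the ligand at the cell surface and is itself a target, was 8.44-fold below SCR on day 8. Scube2, which helps to release the ligand, was higher from day 8, 7.59-fold above SCR on day 12.

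A list of 12 genes around the Adgra2 and Reck receptor complex for Wnt7 also held paralogs of Adgra2 and general Wnt pathway genes. Of the 12, 1, 4, 4, 3 and 5 were lower and 0, 0, 1, 2 and 2 higher. The list's median difference from SCR stayed between -0.05 and 0.04 at all stages. Reck was lower on all EB days, 5.22-fold below SCR on day 8 (adjusted p = 7.4e-13), as was the receptor Fzd4, 8.06-fold. Adgra3, the paralog, was lower at all 5 stages, 3.31-fold on day 8. Wnt7b was 1.68-fold above SCR on that day, and Lrp6, the substrate of Cdk14, was -0.68 from SCR and -0.29 from WT.

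Among 9 teneurins and their ligands, 1, 4, 6, 7 and 8 were lower and 0 higher at any stage by limma, with 0 higher at an unadjusted p under 0.05 too. Flrt2, a leucine-rich repeat protein that binds latrophilins, was 18.4-fold below SCR on day 8 (adjusted p = 1.7e-17) and 2.96-fold on day 4. Tenm4 was 7.04-fold below on day 8 and Flrt3 1.69-fold on day 12. The latrophilin Adgrl2 was 3.46-fold below SCR in ESCs (adjusted p = 5.7e-10), at 0.19 from it on day 4, which did not pass, and 3.39-fold below on day 12.

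**Figure D4:**
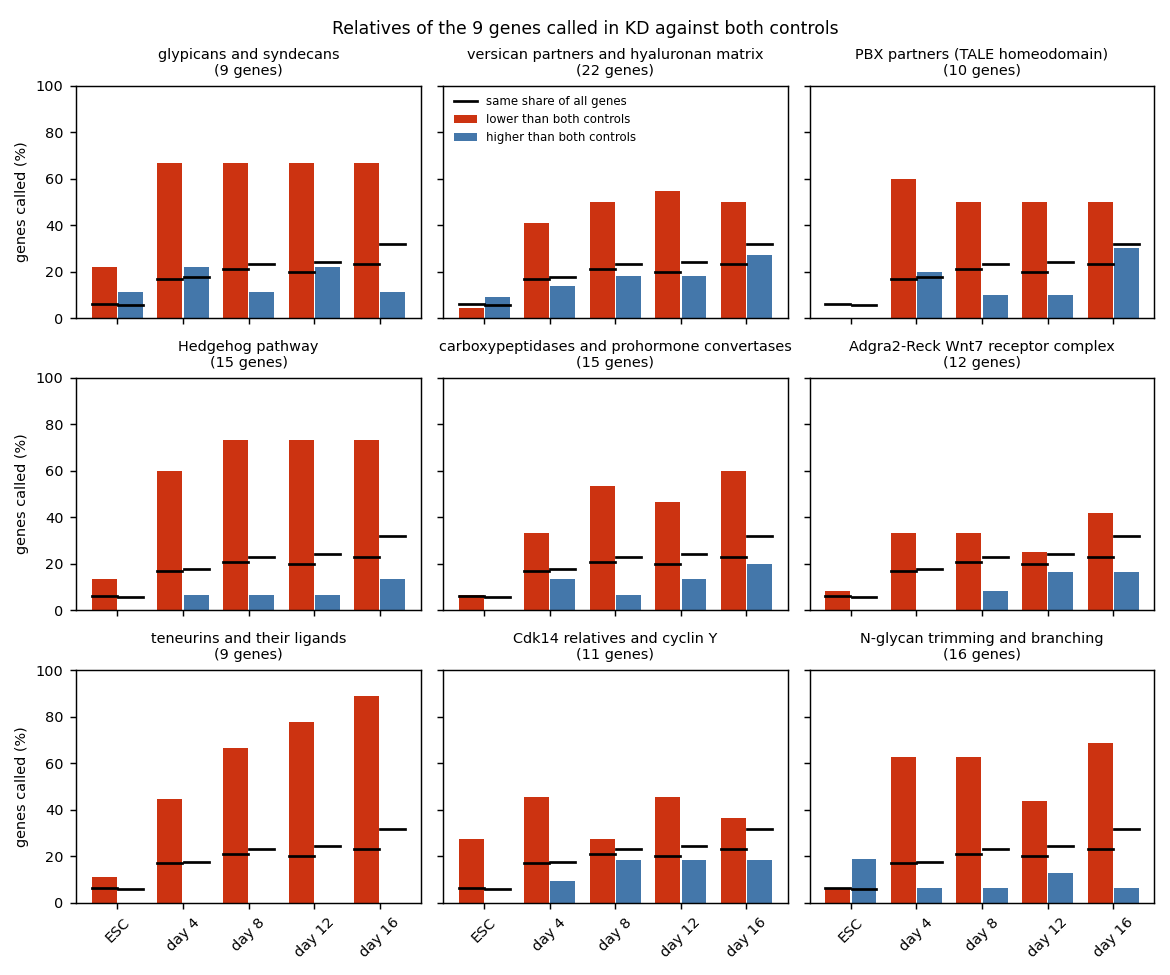
Percent of the genes of each of 9 lists called lower (red) or higher (blue) in the KD-labelled line than in both controls, at each stage; black lines give the same percent over all 18193 genes. Teneurins and their ligands have no blue bar, and the red bars of the Hedgehog list reach 11 of 15 genes from day 8 on.

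Of 10 TALE homeodomain genes and partners of PBX proteins, 0, 6, 5, 5 and 5 were lower and 0, 2, 1, 1 and 3 higher. In ESCs, where none was called by limma, 2 were lower and 1 higher than both controls at an unadjusted p under 0.05. Meis1, which binds DNA with PBX proteins, differed from SCR by 0.05 in ESCs (adjusted p = 0.92), and was 4.22-fold below on day 4 and 27.4-fold on day 8 (adjusted p = 4.5e-20). Meis2 was 19.3-fold and Pknox2 4.98-fold below SCR on day 8. The repressor Tgif1 was higher on all EB days, 4.52-fold on day 8.

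Of 15 carboxypeptidases, prohormone convertases and other peptide-processing genes, 1, 5, 8, 7 and 9 were lower and 0, 2, 1, 2 and 3 higher. Cpd, a carboxypeptidase related to Cpe, was lower at all 5 stages, 4.26-fold below SCR on day 4. The convertase Pcsk5 was 40.5-fold below SCR on day 4 (adjusted p = 3.5e-22) after an ESC difference of -0.02. Pcsk6 was higher on all EB days, 4.86-fold above SCR on day 16, and Pam, which amidates peptides after Cpe has acted, was 3.84-fold below.

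Of 16 genes of N-glycan trimming and branching, the pathway of Man1a, 1, 10, 10, 7 and 11 were lower and 3, 1, 1, 2 and 1 higher. The sialyltransferase St6gal1 was lower at all 5 stages, 4.67-fold below SCR on day 8 (adjusted p = 2.2e-17). Man1c1, which like Man1a trims mannose in the Golgi, was 3.92-fold below SCR on day 4, and the later-acting Man2a2 3.22-fold on day 8. Man1a2, a paralog of Man1a, was 1.76-fold below SCR on day 4 and 1.24-fold above it on day 12 (adjusted p = 0.021).

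Of 11 relatives of Cdk14, with the cyclin Y genes, 3, 5, 3, 5 and 4 were lower and 0, 1, 2, 2 and 2 higher. Cyclin Y (Ccny), the partner of Cdk14, was lower at all 5 stages, 1.46-fold below SCR in ESCs (adjusted p = 1.2e-05) and 3.17-fold on day 16 (adjusted p = 5.3e-18). The related Ccnyl1 passed against both controls on day 4 alone. The related kinase Cdk16 was lower in ESCs and on days 4 to 12, 1.84-fold on day 8, with -0.29 on day 16 (adjusted p = 0.067). Cdk6 was 3.86-fold below SCR on day 16. By the counts given above, fibroblast and mesenchyme markers were mainly lower and pluripotency markers mainly higher in KD-labelled EBs. Their part in the differences of the relatives was not tested.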

How the data were processed

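RNA of 45 samples, 3 for each of 15 groups of line and stage, was hybridised to Affymetrix mouse arrays after 3' amplification of 100 ng, per the labels' protocols. The deposited table holds 45037 probe sets as log2 signals, normalized by the authors; the submitters' processing notes name Affymetrix Expression Console, Partek 6.6 and RMA, without their order. Values ran from 1.82 to 14.26 and were used as deposited. Where arrays are normalized to a shared distribution, as in RMA, a change common to most genes is reduced. The first 8-day array of each line has an ESC tag in 1 label field, while its title and source name give 8-day bodies, which were followed.

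Probe sets were named from the platform annotation with symbols updated through RefSeq's GRCm38.p6 table: 34945 had 1 gene, 932 several and 9160 none. The brightest probe set over 45 arrays stood for a gene, giving 18193 genes with no filter on dim ones. limma 3.58.1 (R 4.3.3) fitted 15 group means with eBayes, and p-values were adjusted by Benjamini-Hochberg within each contrast at 0.05. Code was tested on simulated data. Members and lists were chosen with earlier results of these data known. Named beside the 9 genes were Strip2, the genes of highest correlation over the 30 control arrays, up to 3 relatives a list by the largest mean difference from the controls, and relatives whose role bears on a member. Alternatives covered scaling, eBayes with trend and robust settings, the choice of probe set, a filter on dim genes, fits of only the groups compared, the replicate number as a block and each array left out. The replicate numbers were not taken to pair samples. Precision is limited by 3 arrays a group.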

Additional observations from a re-analysis of the deposited data

Results flagged for a closer look

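The Pbx3 change from ESCs to day 16 differed between the control lines, by -0.89 (SCR minus WT, limma SE 0.257, adjusted p = 0.024), in a test of the difference itself. In the following steps all arrays of the later stage lay above all of the earlier stage in a given line, and below them in another. The difference between the lines was not tested. Gpc6 changed by -0.40 in WT, -0.017 in SCR and 0.70 in the KD-labelled line from day 8 to day 12. Pbx3 changed by 0.11 in WT, 0.41 in SCR and -0.36 in the KD-labelled line from day 4 to day 8. From day 8 to day 12 Cdk14 changed by -0.57 in WT, 0.01 in SCR and 0.46 in the KD-labelled line. Man1a changed by 1.46 in WT, 0.82 in SCR and -0.40 in the KD-labelled line from ESCs to day 4, and by -0.86, -0.67 and 1.33 from day 8 to day 12.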

How the results depend on the processing

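Of 3996 values of single genes recomputed under the alternatives, 3877 kept their side of the threshold, 71 lost a call and 48 gained a call. Among values called in either fit, 0 reversed direction. Where neither fit gave a call, direction was not compared. The 1 lower call among SCR minus WT course differences became 2 with genes above the median level, 2 with the probe set of largest spread, 2 with the mean of probe sets and 0 when only the groups compared were fitted. Of 66 higher calls of relatives, 40 were left among genes above the median level. Lower steps in SCR went from 2 to 1 with the probe set of largest spread and to 4 with the replicate number as a block; those in WT went from 1 to 3 with the mean of probe sets and to 2 with only the groups compared. The block also ended the call of the Vcan step from day 8 to day 12 in the KD-labelled line and added Gpc6 and Man1a steps in SCR and Tenm3 in SCR against WT on day 12. Deviations of same-numbered samples from their group means correlated at -0.39 to 0.57 (median 0.031), with 101 of 315 pairs over 0.1, so not every pair deviated together; KD-labelled replicate 2 had the lowest mean of the 9 genes at all 5 stages. Fitting only the groups compared gave 1 lower call against ESCs and 1 lower step in the KD-labelled line, where there had been 0. With the mean of all probe sets the median difference from SCR was -0.997 in ESCs, -2.60, -3.57, -2.91 and -2.77 on days 4 to 16, and from WT -0.48, -2.53, -3.19, -2.46 and -2.52; dim probe sets enter that mean. The cause of the other shifts was not tested. Leaving out each array in turn gave 6 to 10 higher calls in SCR against WT, 35 to 36, 34 to 35 and 23 to 27 higher than ESCs in WT, SCR and the KD-labelled line, 15 to 17 higher and 0 to 1 lower steps in WT, 15 higher and 1 to 3 lower in SCR, 4 to 6 higher in the KD-labelled line, 0 to 5 lower course differences, and 260 to 270 lower and 63 to 69 higher calls of relatives. The median difference from SCR then ran from -2.30 to -1.78 in ESCs, -3.06 to -2.96 on day 4, -4.50 to -4.27 on day 8, -3.79 to -3.63 on day 12 and -3.94 to -3.54 on day 16; from WT it ran from -1.48 to -1.04, -2.97 to -2.69, -4.48 to -4.24, -3.32 to -3.11 and -3.76 to -3.14. Signals near the bottom of the scale limit what dim probe sets such as that of Strip2 can show.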
